A study of Mus musculus with 36 samples.

Results

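The Slc37 genes encode the sugar-phosphate transporters of the endoplasmic reticulum and related membranes. The 4 members Slc37a1, Slc37a2, Slc37a3 and Slc37a4 were taken by symbol from the 30205 genes measured in 36 RNA-seq libraries of mouse bone cells. The family was selected on the measured interaction of cell type and genotype of Slc37a2 in these same libraries, so the levels and differences of Slc37a2 are given as a description with no test. The other 3 members were tested. The libraries form 6 groups of 6, made from cells of mice aged 20 weeks that were either wild-type controls (WT) or Mir324-null, and Mir324 is the gene of the microRNAs miR-324-5p and miR-324-3p. Bone marrow macrophages (BMM) were grown for 5 days with 30 ng/mL of the growth factor M-CSF. Osteoclasts (OC), the multinucleated cells that resorb bone, came from the same kind of macrophage culture, grown for the 5 days with the same M-CSF and with 50 ng/mL RANK-L, the cytokine that drives osteoclast formation. Osteoblasts (OB), the cells that make bone, grew out of bone chips and were held for 18 days in osteogenic medium. All animals thus differ by the Mir324 allele alone as far as the labels say, which name neither the strain nor how the allele was made. The labels do not say whether the 6 libraries of a group came from separate mice, so p-values measure the spread between these libraries, which may be technical.

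SLC37 proteins sit in the membranes of the endoplasmic reticulum or of lysosome-related organelles. The best known, SLC37A4, carries glucose-6-phosphate from the cytosol into the endoplasmic reticulum, where a glucose-6-phosphatase releases glucose and phosphate, and its loss causes a glycogen storage disease with neutropenia. SLC37A1 and SLC37A2 exchange glucose-6-phosphate for phosphate when placed in artificial membranes. SLC37A2 is abundant in macrophages and lies in the secretory lysosomes of osteoclasts, the organelles that deliver acid and proteases to the bone surface. SLC37A3 works with the protein ATRAID in the release of nitrogen-containing bisphosphonates from lysosomes.

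Each library held 14118972 to 26347581 estimated counts. Levels between libraries are given as CPM, which corrects for sequencing depth, and levels between genes as TPM, which also divides by transcript length. The cell labels were checked against marker genes. The summed CPM of 10 osteoclast markers lay at 29653 to 31879 in WT OC and at only 421 to 772 in the libraries labelled null OC, where Calcr, the calcitonin receptor, had no count in any library. The libraries labelled OB also held osteoclast markers (4141 to 5270 CPM in WT, 5029 to 7784 in null) and 8 macrophage markers (12616 to 15932 CPM in WT, 6916 to 10013 in null). Lyz2 made up most of the macrophage sum, with means of 11128 CPM in WT OB and 6357 in null OB. In the same libraries 9 osteoblast markers summed to 54542 to 78231 CPM in WT and 97162 to 116318 in null, without overlap. The part of this difference in the genotype comparisons of OB was not tested. Summed over their lists, 10 neutrophil markers stayed between 2.73 and 20.8 CPM, 6 adipocyte markers between 1.36 and 23.5 and 5 lymphocyte markers between 0.649 and 2.41, while 5 endothelial markers lay between 77.1 and 309. The endothelial sum was almost all Pecam1, with group means of 105 to 202 CPM. Group means of Kdr were 1.41 to 15.4 CPM, and those of Cdh5, Emcn and Tek were at most 0.505. In such bulk libraries fewer cells of a type and less RNA per cell cannot be told apart. The deleted microRNA gene was not analysed here.

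Slc37a2 was the most abundant member in all 6 groups, and its level in WT OC stood apart from every other group. The gene lies on chromosome 9 (chr9:37227585-37255738, minus strand, GRCm38). In WT BMM the 6 libraries ranged from 212 to 263 CPM with a median of 224. In WT OC they ranged from 1212 to 1414 CPM with a median of 1303. No library of any other group came near that range. In the libraries labelled null OC the level ran from 101 to 135 CPM with a median of 116, and in null BMM from 92.4 to 116 CPM with a median of 96.6. The null groups overlapped each other, so the difference between cultures with and without RANK-L seen in WT had no counterpart of that size in null. In the bone-forming cultures the order of the genotypes was the opposite: WT OB ran from 157 to 187 CPM (median 175) and null OB from 210 to 296 CPM (median 256), without overlap.

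Expressed as log2 differences from the fitted model, Slc37a2 in null against WT was -1.18 ± 0.07 (SE) in BMM, -3.54 ± 0.07 in OC and 0.52 ± 0.09 in OB, each over 6 against 6 libraries. These correspond to levels 2.26-fold lower, 11.6-fold lower and 1.44-fold higher in null. With other ways of processing the counts, the log2 difference in OB ran from 0.41 to 0.53. OC against BMM gave 2.56 ± 0.07 in WT, a 5.89-fold higher level with RANK-L, and 0.21 ± 0.07 in null. The genotype difference in OB exceeded that in OC by 4.08 ± 0.11 and that in BMM by 1.72 ± 0.11 on the log2 scale. These comparisons share groups, WT BMM and WT OC among them, and are not independent of each other. The values describe the pattern for which the gene was picked.

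On the per-length scale Slc37a2 reached 651 ± 54.0 TPM (SD, n = 6) in WT OC, rank 237 of the 18927 genes with a TPM above 0 there. It followed with 130 ± 19.6 TPM in null OB, 98.9 ± 10.5 in WT BMM, 80.7 ± 5.04 in WT OB, 48.7 ± 3.63 in null OC and 40.7 ± 5.19 in null BMM. In this order null OB and WT BMM overlapped, as did null OC and null BMM, whereas the other neighbours did not. Of the summed TPM of the family, Slc37a2 made up 96.3% ± 0.179 (SD, n = 6) in WT OC. In the other 5 groups its mean share was between 67.5% in null BMM and 75.8% in null OB.

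**Figure D1:**
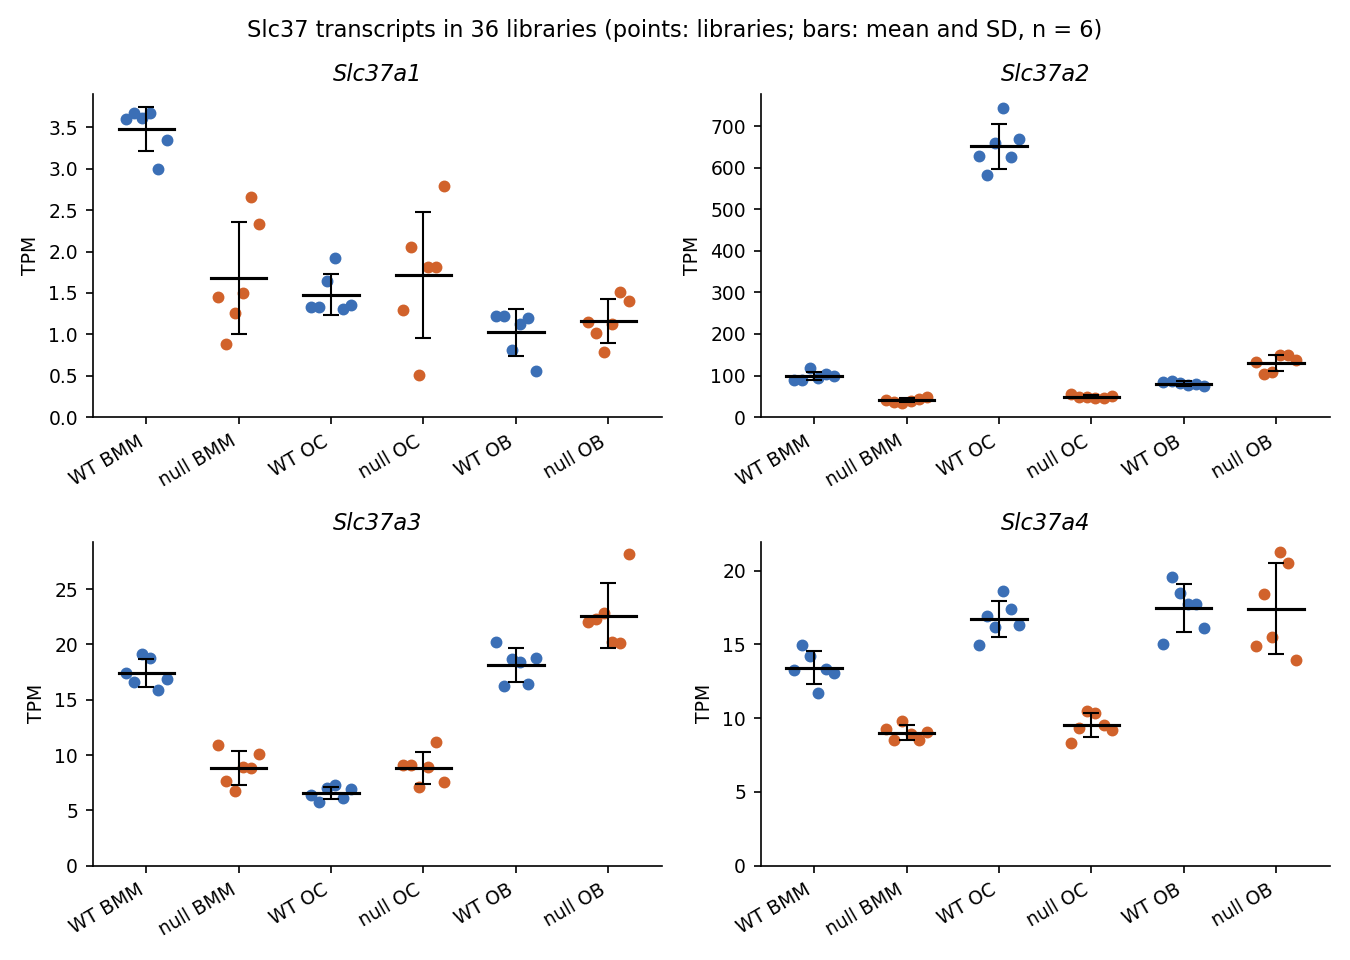
TPM of the 4 Slc37 genes (y axis of each panel, linear from 0) in each library (points) of the 6 groups (x axis), with the mean and SD of 6 libraries; blue is WT and orange is null. Slc37a2 lies at 583 to 743 TPM in WT OC and below 150 TPM in every other library, while Slc37a3 is lowest in WT OC.

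The Slc37a2 level was set beside Ctsk, the collagen-cleaving protease of osteoclasts, and Csf1r, the M-CSF receptor of macrophages; both were chosen for this after their values were seen. The Slc37a2 CPM was 8.71 to 10.6% of the Ctsk CPM in the WT OC libraries. In the OB libraries the same ratio was 7.94 to 10.5% in WT and 9.56 to 11.1% in null, a range overlapping that of WT OC. In BMM, where Ctsk had 2.68 to 9.89 CPM, Slc37a2 was at 1680 to 4037% of Ctsk. In null OC, where Ctsk had 36.7 to 221 CPM, it was at 57.1 to 323%. Relative to Csf1r, Slc37a2 was at 11.7 to 16.9% in WT BMM, 4.92 to 6.50% in null BMM, 5.88 to 8.12% in null OC and 100 to 104% in WT OC. In OB it was at 26.5 to 30.0% in WT and 30.8 to 44.7% in null, without overlap. The macrophage markers did not move together between WT BMM and null BMM. The means of Csf1r were 1731 and 1827 CPM and those of Adgre1 1892 and 7466 CPM, whereas Mrc1 had 1214 and 243 CPM, Mertk 103 and 45.2, Fcgr1 58.5 and 22.1, and C1qa 1582 and 827. The osteoclast markers did not keep a common proportion between WT OC and WT OB either. Their means were 13470 and 1945 CPM for Ctsk, 6873 and 1461 for Acp5 and 750 and 172 for Nfatc1. Those of Dcstamp were 366 and 17.6 CPM and those of Calcr 31.8 and 1.04, beside 1308 and 174 for Slc37a2. A ratio to a single osteoclast or macrophage marker therefore depends on the marker taken. The part of osteoclast and macrophage RNA in the Slc37a2 level of the OB libraries was not tested.

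**Figure D2:**
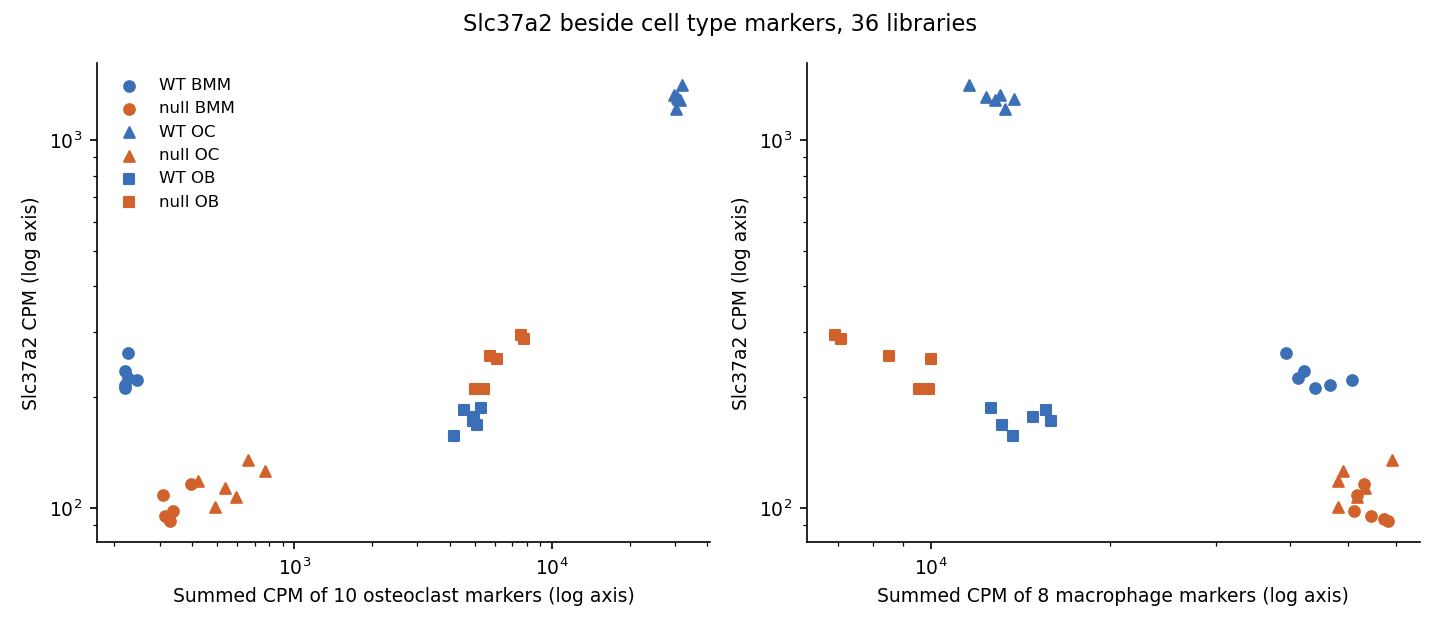
Slc37a2 CPM (y axis, log) against the summed CPM of 10 osteoclast markers (left, x axis, log) and of 8 macrophage markers (right, x axis, log) in 36 libraries. Circles are BMM, triangles OC and squares OB, blue WT and orange null. Lyz2 makes up most of the macrophage sum. The WT OC libraries stand apart at 1212 to 1414 CPM and the null OC libraries lie beside null BMM, while null OB lies above WT OB in Slc37a2, with osteoclast markers of 5029 to 7784 against 4141 to 5270 CPM.

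Slc37a2 is annotated with a pair of coding transcripts that differ at both ends. Exon 1 of Slc37a2-201 has 440 bases, 324 more at the start than the 116 of Slc37a2-202, and the last codons and 3′ ends differ as well. The 57-base exon 18 of Slc37a2-202 (chr9:37233053-37233109) is not part of Slc37a2-201. The last coding bases are shown for both, read from the GENCODE M21 transcripts on the transcribed strand, with capitals for the bases specific to each.
Slc37a2-201: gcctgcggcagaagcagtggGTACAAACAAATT
Slc37a2-202: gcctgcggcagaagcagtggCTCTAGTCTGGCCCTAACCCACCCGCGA
The stop codon follows directly, and the coding lengths are 1503 and 1518 bases. The choice of transcript was not used in picking the gene, and its share of the gene's estimated counts was tested in 10 comparisons of transcripts of this family by exact permutation. The coding pair of a gene holds nearly all of its counts, so the tests of a pair mirror each other and are not separate findings.

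Slc37a2-201 held a smaller share of the gene's counts in WT OC than in WT BMM. The share was 42.1 to 51.0% in WT BMM (mean 46.3%) and 37.8 to 40.8% in WT OC (mean 39.0%), and the groups did not overlap. The difference of -7.38 percentage points had a two-sided exact permutation p of 0.0022, the smallest that 6 against 6 libraries can give, and an adjusted p of 0.00722. Slc37a2-202, the near mirror of that share, moved the other way by 7.59 points (exact permutation, adjusted p = 0.00722). The higher Slc37a2 counts of WT OC thus came with a shift towards the transcript with exon 18, while both transcripts had more counts there than in WT BMM. Null OC did not differ detectably from WT OC in the share of Slc37a2-201 (39.3% against 39.0%, exact permutation, adjusted p = 0.764).

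In OB the share of Slc37a2-201 was 31.0 to 34.7% in WT and 34.8 to 37.7% in null. These ranges did not overlap, and the difference of 2.88 points passed the test (exact permutation, adjusted p = 0.00722). The fall of Slc37a2-202 by 2.47 points in null OB passed narrowly (exact permutation, adjusted p = 0.0487). It did not pass with shares of TPM (0.0563), nor in 9 of the refits that left out 1 library (0.0541 to 0.0736), which were those without WT OB replicate 1, 3, 4 or 6 or without null OB replicate 1, 2, 4, 5 or 6. Across all 13607 genes tested in OB, the log2 difference between genotypes had a Spearman correlation of 0.55 with transcript length, a description across genes that are not independent. Slc37a2-201 is the longer transcript, at a deposited length of 4379 against 2945 bases, and the part of this length trend in the share was not tested. In BMM the share of Slc37a2-201 was 40.6% in null and 46.3% in WT, with overlapping ranges (exact permutation, adjusted p = 0.0649). It passed when WT BMM replicate 3 or null BMM replicate 5 was left out (exact permutation, adjusted p = 0.0379 to 0.039).

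**Figure D3:**
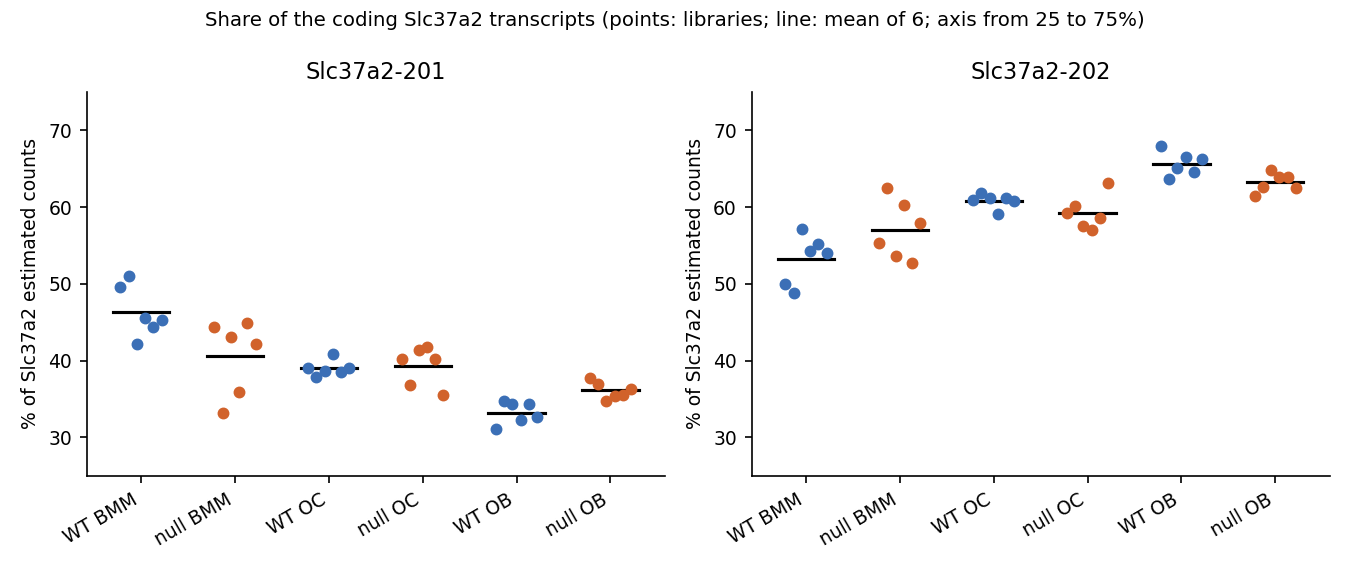
Share of the gene's estimated counts (y axis, percent, from 25 to 75) held by the coding transcripts Slc37a2-201 (left) and Slc37a2-202 (right) in each library (points) of the 6 groups (x axis), with the mean as a line; blue is WT and orange is null. Slc37a2-201 falls from a mean of 46.3% in WT BMM to 39.0% in WT OC and is lowest in WT OB.

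The sequence before the Slc37a2 start is shown because this gene carries the largest difference of the family. RefSeq (GRCm38.p6) gives 1 start for Slc37a2, and the 250 bases before it lie at chr9:37255739-37255988 on the minus strand. Capitals mark a match to the AP-1 motif TGANTCA, bound by Fos and Jun proteins, 107 bases before the start.
Slc37a2 promoter: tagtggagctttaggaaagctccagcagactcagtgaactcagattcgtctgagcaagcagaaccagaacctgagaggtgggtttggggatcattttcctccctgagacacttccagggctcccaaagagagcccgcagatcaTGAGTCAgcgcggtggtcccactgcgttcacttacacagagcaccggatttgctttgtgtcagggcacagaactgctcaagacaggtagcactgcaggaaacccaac
Of all 32851 promoter windows of this length, 6.75% held TGANTCA, which reads the same on both strands. No match to the PU.1 motif AGGAAGT or the NFAT motif TGGAAA was found in this window on either strand, which says only that these letters are absent from it. These matches are descriptions of the letters and not binding sites.

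The microRNAs of Mir324, whose levels were not analysed here, are shown with their seeds (bases 2 to 8) in capitals. A match to a seed in a 3′ UTR is the usual mark of a direct target.
mmu-miR-324-5p: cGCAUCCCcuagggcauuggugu
mmu-miR-324-3p: cCACUGCCccaggugcugcu
The annotated 3′ UTRs of the 6 coding transcripts of the family held 0 matches to the miR-324-5p seed. They held 1 match to the miR-324-3p seed, in Slc37a2-201 at chr9:37229646-37229652, capitals in the site below.
Slc37a2-201 site: caatatgaaaaGGCAGTGagaagcagaag
The site lies at position 3876 of the annotated transcript of 5943 bases, which is longer than the deposited length of that transcript. Slc37a2-202 held no match. The 3′ UTR of Slc37a2-201 was the longest searched, at 4056 bases. The rate of such matches over the 3′ UTRs of all genes was not counted, and whether the site is used was not tested.

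Slc37a3 was lower in WT OC than in WT BMM, where Slc37a2 was higher, and it was lower in null BMM than in WT BMM, as Slc37a2 was. It lies at chr6:39334773-39377675 on the minus strand. WT BMM libraries ranged from 43.4 to 51.7 CPM (median 48.2) and WT OC libraries from 14.7 to 17.1 CPM (median 16.4), with no overlap. The difference of WT OC from WT BMM was -1.53 ± 0.09 (log2, SE; edgeR adjusted p = 7.21e-15), a level 2.89-fold lower. In this comparison all 3 tested members passed the threshold, where 60.5% of all genes tested did. Of all genes tested, 30.4% were called higher and 30.1% lower there. The 8 macrophage markers also differed between these groups, with a summed CPM of 39393 to 50773 in WT BMM, 51156 to 58267 in null BMM, 11601 to 13776 in WT OC and 47985 to 59115 in null OC. Lyz2 made up most of that sum, with means of 34863, 42146, 8057 and 40341 CPM in the same order. Cd68, Mrc1, Fcgr1, Mertk and C1qa had lower means in null BMM than in WT BMM, and Lyz2, Csf1r and Adgre1 higher ones. The part of the macrophage markers in the differences of the members was not tested. Null BMM lay between the WT groups in Slc37a3 at 21.6 to 30.7 CPM (median 26.8), as did null OC at 21.3 to 30.7 CPM (median 26.3). OC against BMM in null gave -0.05 ± 0.09 for Slc37a3 (edgeR adjusted p = 0.743). None of the 3 tested members passed there by edgeR, 0 had an unadjusted p under 0.05 and 0 passed with DESeq2 or limma-voom, against a background of 12.9% of genes called by edgeR.

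By genotype, Slc37a3 fell in null BMM by 0.84 ± 0.09 (log2, SE; edgeR adjusted p = 6.59e-07) and rose in OC, where null exceeded WT by 0.63 ± 0.09 (edgeR adjusted p = 1.08e-05). The direction of the genotype difference was thus opposite with and without RANK-L. The difference itself was tested as the interaction, and the RANK-L change of Slc37a3 was 1.48 ± 0.12 higher in null than in WT (edgeR adjusted p = 4.43e-11). In that interaction 2 of the 3 tested members passed, with 51.3% of all genes called. In OB the ranges overlapped, at 43.5 to 55.2 CPM in WT and 48.1 to 65.8 CPM in null, and the difference of 0.13 ± 0.08 did not pass (edgeR adjusted p = 0.231). WT OB exceeded WT OC by 1.55 ± 0.09 (edgeR adjusted p = 1.12e-18) and was close to WT BMM (0.02 ± 0.08, adjusted p = 0.804).

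RefSeq lists a pair of starts for Slc37a3. The 250 bases before the second one (chr6:39377708-39377957, minus strand, GRCm38.p6) are shown because they hold, in capitals, the letters CACGTG, the core of the E-box used by the lysosomal regulators TFEB and MITF, 13 bases before the start.
Slc37a3 promoter: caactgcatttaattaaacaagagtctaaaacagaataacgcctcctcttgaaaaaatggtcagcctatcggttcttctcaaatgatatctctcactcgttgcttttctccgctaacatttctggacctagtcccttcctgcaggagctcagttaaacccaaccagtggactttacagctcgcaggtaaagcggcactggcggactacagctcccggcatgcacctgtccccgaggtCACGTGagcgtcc
CACGTG, the same on both strands, occurs in 6.02% of all promoter windows. It was not found in the first window of Slc37a3 or in the windows of the other 3 members. The scan covered 7 windows of the family and more motifs than the matches shown. Slc37a1 held a match to the PU.1 motif, and Slc37a4 held matches to the NFAT motif and to the letters TGACG.

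Slc37a1 was the least abundant member, with mean TPM between 1.02 in WT OB and 3.48 in WT BMM, and its estimated counts per library ran from 17 to 159. The gene lies at chr17:31286792-31350739 on the plus strand. WT BMM libraries ranged from 6.24 to 7.99 CPM (median 7.59), null BMM from 2.34 to 6.07 (median 3.41) and WT OC from 2.55 to 3.48 (median 2.68). Of the null OC libraries, at 1.23 to 6.59 CPM (median 3.98), the highest reached into the range of WT BMM, and no library of another group did. Slc37a1 fell in null BMM by 0.89 ± 0.20 (log2, SE; edgeR adjusted p = 0.00138) and fell from WT BMM to WT OC by 1.33 ± 0.24 (edgeR adjusted p = 3.13e-05). The RANK-L change was 1.29 ± 0.35 higher in null than in WT (edgeR adjusted p = 0.00275). Both this transcript and that of Slc37a3 were therefore lower with RANK-L in WT and showed no detectable change with it in null, where Slc37a1 differed by -0.04 ± 0.25 (edgeR adjusted p = 0.941).

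In OC the genotype difference of Slc37a1 was 0.39 ± 0.27 and did not pass (edgeR adjusted p = 0.22). It passed when null OC replicate 3, the library with 17 counts, was left out (0.56, edgeR adjusted p = 0.0204). In OB both genotypes lay between 1.08 and 2.69 CPM and differed by -0.03 ± 0.22 (edgeR adjusted p = 0.936). WT OB against WT BMM gave -1.77 ± 0.24 on the log2 scale (edgeR adjusted p = 3.82e-08). At this depth the pair of Slc37a1 transcripts, tested in the only comparison with 50 or more counts in every library, did not differ in share between WT BMM and WT OC (60.8% and 77.5% for Slc37a1-201, exact permutation, adjusted p = 0.102). Without WT BMM replicate 4 that difference passed (21.9 points, adjusted p = 0.0303).

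Slc37a4, the glucose-6-phosphate translocase of the endoplasmic reticulum, was lower in null than in WT in both macrophage-lineage cultures. It lies at chr9:44396852-44402968 on the plus strand. WT BMM libraries ranged from 15.6 to 20.0 CPM (median 18.3) and null BMM libraries from 12.1 to 15.4 CPM (median 13.1), without overlap. WT OC libraries ranged from 18.4 to 21.4 CPM (median 20.1) and null OC libraries from 12.2 to 15.2 CPM (median 13.2), also without overlap. Slc37a4 fell in null by 0.42 ± 0.09 in BMM (log2, SE; edgeR adjusted p = 0.00109) and by 0.61 ± 0.09 in OC (edgeR adjusted p = 1.72e-05). The effects in BMM and OC were not shown to differ, since the interaction was -0.17 ± 0.12 (edgeR adjusted p = 0.237), though it was -0.31 (edgeR adjusted p = 0.0354) once each library's trend with transcript length and GC content was removed by an offset.

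The members' counts of calls by genotype can be set against the background. In BMM all 3 tested members fell, in a comparison where 52.3% of genes were called and 25.4% called lower. In OC 1 of 3 rose and 1 fell, with 65.6% of genes called. In OB 0 of 3 passed by edgeR, 0 had an unadjusted p under 0.05 and 0 passed with DESeq2 or limma-voom, with 32.5% of genes called by edgeR. In OC the number of members called is near what the share of all genes gives. In BMM it lies above that share, and whether 3 members exceed the background was not tested.

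Slc37a4 rose slightly from WT BMM to WT OC, by 0.20 ± 0.08 (log2, SE; edgeR adjusted p = 0.0441), and this call was fragile. It was lost in the fit of all 36 libraries (adjusted p = 0.0772), without a filter on low counts (0.112), and in 8 of 12 refits without 1 library (0.0508 to 0.113), namely WT BMM replicate 1, 3, 4, 5 or 6 and WT OC replicate 2, 4 or 5. In null the difference was 0.02 ± 0.09 (edgeR adjusted p = 0.893). In OB, WT libraries ranged from 20.0 to 25.5 CPM (median 23.7) and null libraries from 15.9 to 24.7 CPM (median 20.2). They overlapped, and the difference of -0.18 ± 0.12 did not pass (edgeR adjusted p = 0.25). WT OB exceeded WT BMM by 0.34 ± 0.10 (edgeR adjusted p = 0.00177).

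**Figure D4:**
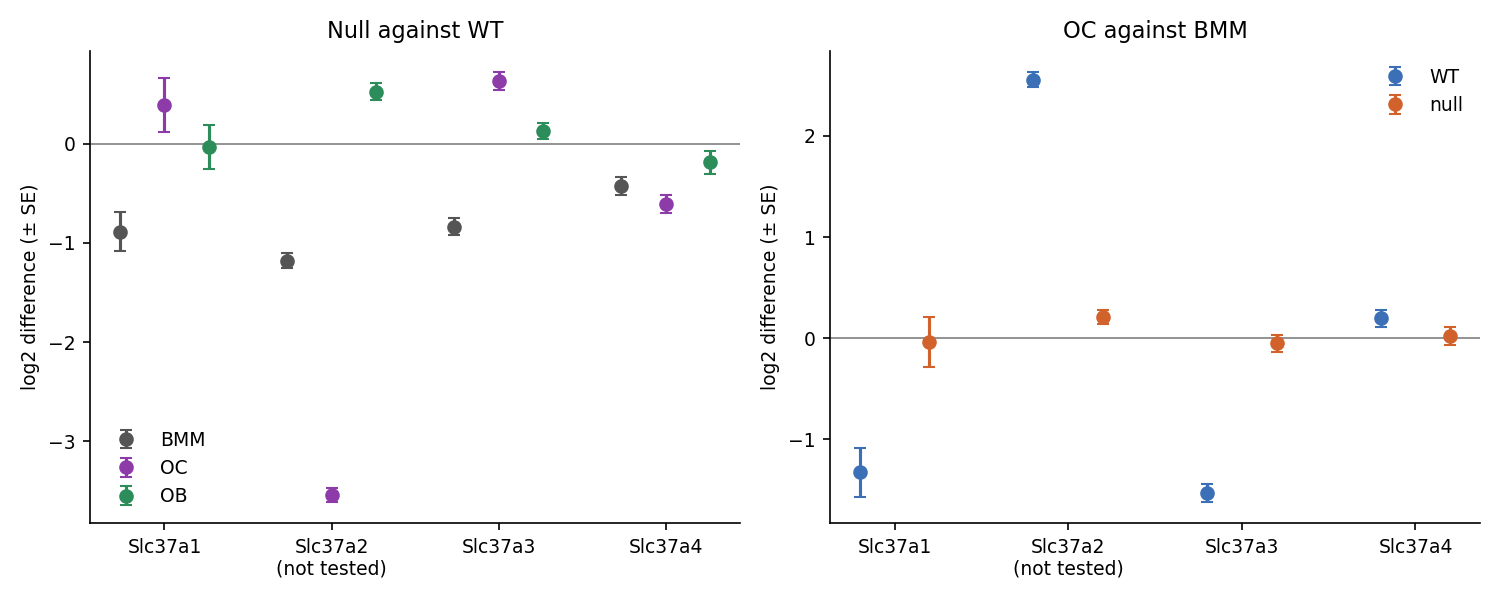
Log2 differences with SE (y axis) of the 4 genes (x axis), for null against WT in BMM, OC and OB (left) and for OC against BMM in WT and null (right), 6 libraries a group. Slc37a2 and Slc37a3 have opposite signs in OC by genotype (-3.54 and 0.63) and in WT by RANK-L (2.56 and -1.53), and all 4 points of null OC against null BMM lie between -0.05 and 0.21.

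The genotype difference in OB was compared with that in the other cells. Against OC, 2 of the 3 tested members differed, in a comparison with 55.2% of genes called: Slc37a3 by -0.49 ± 0.12 (log2, SE; edgeR adjusted p = 0.000636) and Slc37a4 by 0.44 ± 0.14 (edgeR adjusted p = 0.00729). Slc37a1 did not (-0.41 ± 0.35, adjusted p = 0.334). Against BMM, 2 of 3 differed, with 45.9% of genes called: Slc37a3 by 0.98 ± 0.12 (edgeR adjusted p = 1.07e-08) and Slc37a1 by 0.87 ± 0.34 (edgeR adjusted p = 0.0366). The call of Slc37a1 was lost with the length and GC offset (0.69, adjusted p = 0.102) and in 8 of 24 refits without 1 library (0.0523 to 0.0692), namely null BMM replicate 1, 2, 3 or 4, WT OB replicate 3 or 6 and null OB replicate 5 or 6. Between the WT groups, 2 of 3 members differed between OB and BMM, where 76.8% of genes were called, and only Slc37a3 between OB and OC, where 77.9% were called.

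Ranked per length, the order of the members below Slc37a2 changed with the culture. In WT BMM, Slc37a3 (17.4 ± 1.29 TPM, SD, n = 6) lay above Slc37a4 (13.4 ± 1.10 TPM). In WT OC, Slc37a4 (16.8 ± 1.23 TPM) lay above Slc37a3 (6.57 ± 0.580 TPM), and these ranges did not overlap. In the null groups they were close, with 8.86 and 9.02 TPM in BMM and 8.85 and 9.53 TPM in OC. Slc37a1 remained below 4 TPM throughout. The summed TPM of the 4 genes was 676 ± 55.4 in WT OC and between 60.3 in null BMM and 172 in null OB elsewhere.

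The genes that handle glucose-6-phosphate beside the family were read from lists chosen with earlier results of these data known. The first list held 4 genes that act on glucose-6-phosphate inside the endoplasmic reticulum and Hsd11b1, which uses the NADPH made by 1 of them, H6pd. G6pc and G6pc2, the phosphatases of liver and pancreatic islet, had 0 estimated counts in all 36 libraries, which allows up to 3 counts in each (0.114 to 0.212 CPM; counting error only). G6pc3, the broadly expressed phosphatase, rose in null BMM by 0.56 on the log2 scale (edgeR adjusted p = 2.17e-05), from 22.5 ± 1.81 to 33.0 ± 2.65 CPM (SD, n = 6). It also rose in null OC by 0.80 (edgeR adjusted p = 1.90e-07), from 19.4 ± 0.775 to 34.9 ± 4.05 CPM. This direction was opposite to that of Slc37a4, its partner in the same membrane, which fell in the same pairs of groups. H6pd, which oxidises glucose-6-phosphate in the lumen, rose in null BMM by 0.56 (edgeR adjusted p = 0.00946) and in WT OC against WT BMM by 1.17 (edgeR adjusted p = 2.54e-08). In OC the genotype difference of H6pd was -0.07 (edgeR adjusted p = 0.497), and its RANK-L change was lower in null than in WT, by an interaction of -0.62 (edgeR adjusted p = 0.00811). Hsd11b1 had at most 1 count in any WT BMM or WT OC library, against means of 1.85 CPM in null BMM and 1.5 in null OC. It passed the filter on low counts in BMM only through the null group, which fixes its direction there. The other 2 genes tested in BMM, G6pc3 and H6pd, were both called higher, where 27.0% of all genes were, and in OC 1 of the 2 was, where 32.4% were. In OB none of the 3 tested genes passed (edgeR adjusted p from 0.0702 for H6pd to 0.428 for Hsd11b1).

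Phosphate is the counter-substrate of SLC37A1 and SLC37A2 in artificial membranes, and of 8 phosphate carriers 4 were tested. In OC all 4 fell in null, where 33.1% of all genes were called lower, and their median was -1.5 beside -0.03 over all genes. Xpr1, the phosphate exporter of the cell surface, was at 405 ± 45.2 CPM (SD, n = 6) in WT OC, against 51.2 ± 2.80 in WT BMM and 44.1 ± 6.46 in null OC. It differed by -3.25 on the log2 scale in null OC (edgeR adjusted p = 3.37e-14) and by 0.79 in null OB (edgeR adjusted p = 1.69e-05). Slc20a2, a sodium-phosphate importer, differed by -1.67 in null OC (edgeR adjusted p = 2.87e-10). From WT BMM to WT OC, where 30.4% of all genes were called higher, 3 of the 4 rose, Xpr1 by 3.03 and Slc20a2 by 1.75.

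Of 14 genes of the osteoclast secretory lysosome, the organelle in which SLC37A2 protein is known to lie, 12 had levels that reached the filter in both groups of OC. Of these 8 fell in null, 2 rose and 2 did not pass, where 33.1% of all genes were called lower and 32.4% higher. Their median was -1.16 beside -0.03 over all genes. Ctsk differed by -7.44 in that comparison. Rab38, a small GTPase of lysosome-related organelles, entered the test only through the WT group, with 44.7 ± 3.38 CPM (SD, n = 6) in WT OC and 0.310 ± 0.314 in null OC. In null OB 3 of 13 rose, where 15.5% of all genes were called higher and 16.9% lower, and none fell. The list shares Ctsk, Acp5 and Atp6v0d2 with the osteoclast markers given above.

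The remaining lists moved in mixed directions. Of 15 glycogen genes 10 reached the filter in both groups of OC, and 6 rose and 2 fell in null, with 32.4% of all genes called higher and 33.1% lower. Ppp1r3b, a glycogen-targeting subunit of protein phosphatase, differed there by 2.04. Stbd1, a glycogen-binding protein, entered only through the null group, with 0.539 ± 0.274 CPM (SD, n = 6) in WT OC and 2.26 ± 0.585 in null OC. Gyg, the primer of glycogen synthesis, was higher in null OC by 0.58 (edgeR adjusted p = 1.47e-06). It differed by -1.35 in null BMM, by -0.75 in null OB and by -1.94 from WT BMM to WT OC. Of 9 glucose and fructose carriers 6 were tested in OC and 4 rose in null, led by Slc2a6 (2.35) and Slc2a9 (1.52), whereas from WT BMM to WT OC, where 30.1% of all genes were called lower, 4 of 6 fell. Of 10 cytosolic enzymes that make or use glucose-6-phosphate 8 reached the filter in both groups of OC, with 4 higher and 3 lower in null. Hkdc1, a hexokinase, entered only through the WT group. Among them Pgm2l1, which makes glucose-1,6-bisphosphate, differed by 2.34 and Gpi1, the glycolytic isomerase, by -1.06.

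Genes with the pattern most like each member were named by Pearson correlation of log2 CPM over the 36 libraries, among 10231 genes with a mean of at least 10 CPM in a group. The points share the 6 groups, so these values describe the groups more than single libraries. For Slc37a2 the closest were Kidins220 (r = 0.976), Aldh4a1 (0.974), Golm1 (0.973), Acaa2 (0.969) and Lnx2 (0.968). Kidins220, a membrane scaffold protein, had 208 ± 16.6 CPM (SD, n = 6) in WT OC, 62.5 ± 4.21 in WT BMM and 42.7 ± 3.17 in null OC. For Slc37a3 they were Hpgd (0.959), which inactivates prostaglandins, Sgcb (0.956) and Etl4 (0.951). For Slc37a4 they were Atg9b (0.908), Atf4 (0.904), a transcription factor of the integrated stress response, and Atxn10 (0.902). For Slc37a1, the member with the fewest counts, the values were lower, with Dclre1c at 0.855, Snx17 at 0.842 and Gdpd5 at 0.830.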

How the data were processed

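RNA was sequenced from 36 libraries in 6 groups of 6. Per the file headers, each deposited table lists estimated counts and TPM by transcript beside 2 kinds of length, and the submitters' processing notes list kallisto, DESeq2 and the build GRCh38, although the identifiers are those of mouse transcripts; versions are not given in the sources used here. The estimated counts deposited by the authors were summed per gene over transcripts matched to GENCODE M21 (97.5% of 88198; unmatched transcripts held 0.629 to 0.974% of counts) and rounded. TPM values, which carry no depth, were summed as the authors deposited them. Groups came from the labels.

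The test was edgeR's quasi-likelihood test (version 4.0.16; R 4.3.3, limma 3.58.1) after the filter filterByExpr and TMM scaling, with Benjamini-Hochberg adjustment over all genes and a threshold of 0.05. Genotype comparisons used 12 libraries, RANK-L comparisons 24 and comparisons of OB with the other cells 36. CPM uses the scaled library sizes; log2 CPM has a prior count of 2. List counts cover genes whose median reached the filter (10 counts in a library of median depth, 0.526 CPM) in both groups compared. Transcript shares were compared by exact permutation (scipy 1.17.1), adjusted over 10 tests, for transcripts with a mean share of at least 10% and genes with at least 50 counts in each library. The main edgeR fit was tested on simulated counts, and the permutation test was checked against scipy on a random draw. The members, lists, named genes and tests were chosen with earlier results of these data known. Named genes were the members, the genes of glucose-6-phosphate in the endoplasmic reticulum, from each other list the 2 called genes with the largest change and a mean of at least 1 CPM, and the closest 5 (Slc37a2) or 3 genes by correlation. Alternatives were RLE scaling, other filters, DESeq2 1.42.0, limma-voom with quality weights, a block for the replicate number, offsets for average length and for length with GC content, 1 fit of all libraries, and leaving out each library. Sequences are from RefSeq (GRCm38.p6) and GENCODE M21 (GRCm38). Overlapping genes (a pseudogene at Slc37a1, a pseudogene and an antisense gene at Slc37a2, Mir7085 at Slc37a4) make those estimates uncertain, since the labels give no strand setting. Counting without molecular identifiers means that intervals and floors cover counting error only. The closest replicate pair differed by more than sampling noise (chi-square of 3.46 per gene).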

Additional observations from a re-analysis of the deposited data

Results flagged for a closer look

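No group held a library flagged as far from its others among the 48 sets of 6 values examined, of which chance alone would give about 1 in 20. On the TPM scale, Slc37a3 in null OB was at 28.1 in replicate 6 and at 20.1 to 22.9 in the other replicates. Differences between groups in the effect of the same contrast were found for 3 members, each by the test of the interaction in edgeR. For Slc37a1 the RANK-L change was 1.29 higher on the log2 scale in null than in WT (adjusted p = 0.00275), and its genotype difference in OB exceeded that in BMM by 0.87 (adjusted p = 0.0366). For Slc37a3 the RANK-L change was 1.48 higher in null than in WT (adjusted p = 4.43e-11). Its genotype difference in OB exceeded that in BMM by 0.98 (adjusted p = 1.07e-08) and was below that in OC, at -0.49 (adjusted p = 0.000636). For Slc37a4 the genotype difference in OB exceeded that in OC by 0.44 (adjusted p = 0.00729). These comparisons share groups.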

How the results depend on the processing

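No result reversed. The number of tested members called between WT OB and WT OC was 1 and became 2 with DESeq2 or RLE scaling and 3 with limma-voom: Slc37a4 had adjusted p values of 0.0382, 0.0408 and 0.0187 there, and Slc37a1 had 0.0148 with limma-voom. For the genotype difference in OB against BMM it was 2 and became 1 with the length and GC offset, with or without the replicate block, and 1 to 2 when 1 library was left out. With that offset Slc37a3 was 0.20 higher in WT OB than in WT BMM (adjusted p = 0.0157), and Slc37a2 gave -1.05 for null against WT BMM, -2.50 for the RANK-L interaction, -0.28 for WT OB against WT BMM and 1.48 for OB against BMM by genotype. The cause was not tested. The same numbers in different groups did not pair the libraries (0 to 3 of 6 pairs correlated over 0.1), and the replicate block ended 1 member's call, Slc37a4 in WT OC against WT BMM (adjusted p = 0.0532). Over all genes, 4420 calls in OB became 2289 with the length and GC offset and 1979 with the block added. The 1628 calls of null OC against null BMM became 1013 with limma-voom, 1016 with that offset and the block, and 810 to 2143 when 1 library was left out (840, 810 and 948 without null BMM replicate 2, 3 or 4, and 1046 without null OC replicate 3). In 1 further transcript share, Slc37a2-202 in OC, leaving out null OC replicate 6 gave -2.33 points (exact permutation, adjusted p = 0.0271). Slc37a1, with 17 to 159 counts a library, is the member that depth limits most.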
